A study of Homo sapiens with 8 samples.

Results

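The genes described here encode the machinery that licenses replication origins and copies DNA at the fork. They were 50 symbols taken from a named list, from the origin recognition complex to the factors that rebuild chromatin behind the fork, and 49 of them had a row in the count table of 36715 genes. All 49 passed the expression filter and were among the 14850 genes tested. The remaining one, UHRF1, was not in the part of the count table that was analysed, and its reads were recovered from the normalized values. The libraries came from MDA-MB-231, a human triple-negative breast cancer cell line grown in DMEM with serum. Cells were treated with EMD37 (0.5 µM) or with the vehicle DMSO, for 12 h or for 24 h, and each of the 4 groups had 2 libraries, A and B. The labels name EMD37 by its code only and do not say whether A and B were separate cultures, so the p-values rest on the spread among libraries, which may be technical.

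In a dividing cell, origins are marked by the origin recognition complex, and CDC6 and CDT1 load the MCM2-7 helicase there before S phase begins. The kinase CDC7 with DBF4, together with MCM10, CDC45 and the GINS complex, then turns the loaded rings into active helicases. DNA polymerases alpha, delta and epsilon, the sliding clamp PCNA and its loader RFC, the single-strand binding protein RPA and the enzymes that join Okazaki fragments follow the fork. Transcription of many of these genes is known to rise before S phase under the control of E2F factors.

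In the part of the count table that was analysed, the depth was 8.995 M to 11.44 M (mega) counted reads a library. There 3 reads, taken as the floor, were worth 0.262 to 0.334 CPM (counts per M reads). Reads recovered from the normalized values made up 8.26% to 11.7% of a library's counted and recovered reads together. Replicates correlated at 0.988 to 0.992 on log2 CPM. In vehicle at 24 h library B stood above library A for several members of high GC content: CDT1 had 24.6 CPM in B and 12.2 CPM in A. Across the 49 members the GC content of the transcript and the log2 difference of A minus B in that group correlated at r = -0.66 (Spearman's rho -0.48), with all points from the same pair of libraries. Summed over 6 genes that mark this line (VIM, CD44, EGFR, AXL, CAV1 and KRT18), levels were 5007 to 5243 CPM with EMD37 at 24 h and 6277 to 6642 CPM with vehicle at 24 h. The 6 did not move alike at 24 h: CD44, AXL, CAV1 and KRT18 were lower in both EMD37 libraries, VIM overlapped, and EGFR was higher, with 422.8 and 417.9 CPM with EMD37 and 214.9 and 242.6 CPM with vehicle. The part of these markers in the results was not tested. With offsets for GC content, a setting chosen after seeing the data, the count of members called lower at 24 h was 40. ESR1, PGR and ERBB2, absent or low in triple-negative cells, were at 5.18 CPM or less in every library. Of the luminal markers listed with them, GATA3 and FOXA1 were at 2.32 CPM or less, while KRT8 was at 114.7 to 197.1 CPM. Annotated pseudogene copies of members were at 0.12 CPM or less on average where counted, except DBF4P1 at 1.41 CPM. Leukocyte markers summed to 1.48 CPM at most and fibroblast markers to 5.25 CPM at most.

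After 24 h of EMD37 most of the replication genes were lower than in vehicle. In edgeR's quasi-likelihood test, adjusted over all tested genes after Benjamini and Hochberg, 41 of the 49 members fell (83.67%), while 21.1% of all genes were called lower. A single member, ORC4, rose, where 19.6% of all genes were called higher. The median log2 fold change of the members was -0.67, a 1.59-fold lower level, against -0.03 over all genes tested. Falls of at least 2-fold were called for 14 members (28.57%), against 4.46% of all genes. Both EMD37 libraries lay below both vehicle libraries for 42 members, an arrangement found in 35.4% of all genes. Leaving out 1 library in turn gave 35 to 40 members called lower. In bulk RNA of a culture, fewer cells in S phase and less of these RNAs per cell cannot be told apart.

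**Figure D1:**
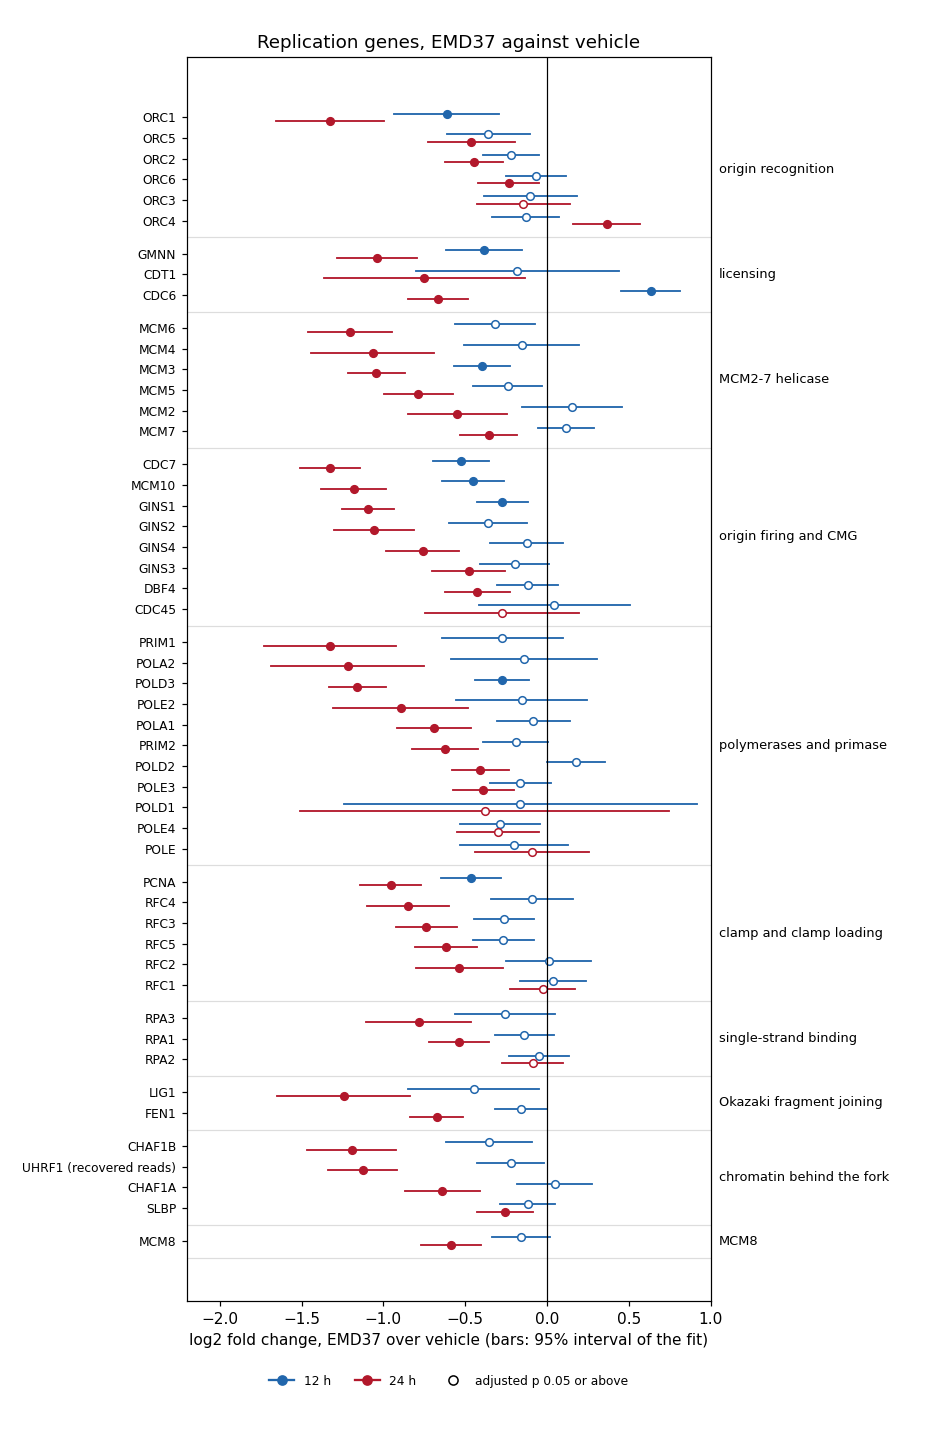
Log2 fold change of each replication gene, EMD37 over vehicle (x axis), by step of replication (y axis), at 12 h (blue) and 24 h (red), with 95% intervals from the fit of 2 libraries per group. Filled points passed an adjusted p below 0.05: at 24 h 41 of the 49 genes of the count table lie to the left of 0 and are filled, and at 12 h 8 are.

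At 12 h fewer of these genes differed between the groups. At this time 8 members were called lower (16.33%, against 3.43% of all genes) and 1 higher (5.27% of all genes), with a median log2 fold change of -0.16 against -0.01 over all genes. The 8 were ORC1, GMNN, MCM3, CDC7, MCM10, GINS1, POLD3 and PCNA, and the one that rose was CDC6. Both EMD37 libraries lay below both vehicle libraries for 33 members at 12 h, an arrangement found in 28.4% of all genes. All 8 were also called lower at 24 h, and 32 others were called lower at 24 h and not called at 12 h. The 12 h and 24 h effects were compared directly by the treatment by time interaction, the EMD37 effect at 24 h minus that at 12 h. It was called lower for 29 members (59.18%, against 7.94% of all genes) and higher for 1, ORC4 (7.96% of all genes), with a median of -0.55 against -0.04 over all genes.

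Most of the 12 h calls were lost under at least 1 setting. Among the 9, CDC6 and CDC7 stayed below an adjusted p of 0.05 under every setting run. Calls for GMNN, GINS1 and POLD3 were lost on leaving out any 1 of the 4 libraries at 12 h, with log2 fold changes of -0.47 to -0.30 for GMNN, -0.30 to -0.24 for GINS1 and -0.33 to -0.22 for POLD3. GMNN and POLD3 lost the call also without either EMD37 library of 24 h (edgeR adjusted p = 0.0587 to 0.0646 for GMNN and 0.0506 to 0.0687 for POLD3), and GINS1 without EMD37 24 h A (0.0514). With all libraries kept, GMNN lost the call by DESeq2's Wald test (adjusted p = 0.0966). POLD3 lost it by that test (adjusted p = 0.0919), and by edgeR with DESeq2 size factors (adjusted p = 0.0516), with no filter on low counts (0.058), with a replicate block (0.0648) and with recovered reads added (0.0572). The call for ORC1 was lost without EMD37 A (-0.45, edgeR adjusted p = 0.249), vehicle A (-0.63, adjusted p = 0.0881) or vehicle B (-0.59, adjusted p = 0.111). For MCM3 it was lost without EMD37 A (-0.35, edgeR adjusted p = 0.0972), EMD37 B (-0.45, adjusted p = 0.0516) or vehicle A (-0.32, adjusted p = 0.132). MCM10 lost it without EMD37 B (-0.42, edgeR adjusted p = 0.0976) or vehicle A (-0.38, adjusted p = 0.0903), and PCNA without EMD37 B (-0.46, adjusted p = 0.0639). All of these values stayed negative.

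**Figure D2:**
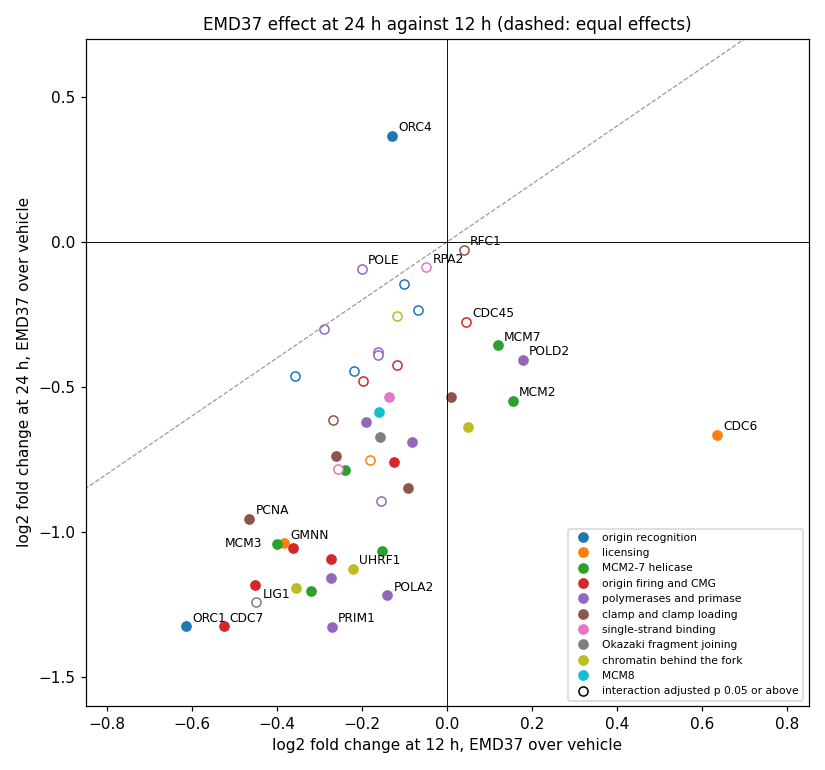
Log2 fold change of EMD37 over vehicle at 12 h (x axis) against that at 24 h (y axis) for the 50 replication genes, colored by step, with the line of equal effects dashed. Filled points passed the interaction test at an adjusted p below 0.05; all but ORC4 of the filled points lie below the dashed line, and CDC6 alone lies at 0.64 at 12 h and below 0 at 24 h.

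The subunit genes of the origin recognition complex were not all called alike, and the differences between subunits were not tested. At 24 h 4 of its 6 genes fell, 1 rose and 1 was not called, with a median log2 fold change of -0.34. For this step and those below, the shares of all genes at 24 h were 21.1% called lower and 19.6% called higher. ORC1, the subunit whose level changes over the cell cycle (ENSG00000085840, chr1:52372829-52404459 on hg38), had 12.0 and 11.7 CPM with EMD37 at 24 h, against 32.6 and 26.7 CPM with vehicle. At 12 h ORC1 had 14.2 and 18.1 CPM with EMD37 and 24.2 and 25.1 CPM with vehicle. The groups were apart at both times, and ORC1 fell by 1.32 on the log2 scale (standard error 0.16, edgeR adjusted p = 4.65e-06) at 24 h and fell by 0.61 on the log2 scale (standard error 0.15, edgeR adjusted p = 0.0174) at 12 h. ORC3, a core subunit, had 26.4 and 34.6 CPM with EMD37 at 24 h and 36.1 and 31.4 CPM with vehicle. Its groups overlapped and it was not called (log2 fold change -0.14, standard error 0.14, edgeR adjusted p = 0.423, 95% interval -0.43 to 0.14).

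ORC4, an ATP-binding core subunit (ENSG00000115947, chr2:147930397-148021604), went the other way. It had 81.6 and 90.4 CPM with EMD37 at 24 h, against 72.0 and 61.4 CPM with vehicle, and rose (log2 fold change 0.36, standard error 0.10, edgeR adjusted p = 0.00629). At 12 h it had 70.2 and 64.0 CPM with EMD37 and 73.7 and 73.2 CPM with vehicle, which did not pass the test (log2 fold change -0.13, standard error 0.10, edgeR adjusted p = 0.475). The call at 24 h was lost without vehicle B (0.26, edgeR adjusted p = 0.0559) or EMD37 B (0.28, adjusted p = 0.0891), and ORC4 was named for being the single member called higher. Smaller falls were called for ORC2 (-0.45, edgeR adjusted p = 0.000437), ORC5 (-0.46, adjusted p = 0.00754) and ORC6 (-0.23, adjusted p = 0.043). The call for ORC5 was lost without EMD37 24 h A (-0.34, edgeR adjusted p = 0.114). That for ORC6 was lost under 14 of the settings run, among them DESeq2 size factors (edgeR adjusted p = 0.0741) and the DESeq2 Wald test (adjusted p = 0.165).

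All 3 licensing factors fell at 24 h. CDC6, the ATPase that loads the helicase with CDT1 (ENSG00000094804, chr17:40287633-40304657), was the one member called in opposite directions at the 2 times. At 12 h it had 189 and 204 CPM with EMD37, against 134 and 119 CPM with vehicle, and rose (log2 fold change 0.64, standard error 0.09, edgeR adjusted p = 9.37e-05). At 24 h it had 110.2 and 113 CPM with EMD37 and 187 and 166 CPM with vehicle, and fell by 0.67 on the log2 scale (standard error 0.09, edgeR adjusted p = 1.29e-05). The libraries did not overlap at either time, and the interaction was -1.30 (standard error 0.12, edgeR adjusted p = 3.13e-06). Within EMD37, CDC6 fell by 0.82 on the log2 scale between 12 h and 24 h, while within vehicle it rose by 0.48.

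GMNN encodes geminin, which binds CDT1 and prevents a second round of licensing (ENSG00000112312, chr6:24774931-24786099). GMNN had 24.1 and 24.0 CPM with EMD37 at 24 h and 53.0 and 45.8 CPM with vehicle, and at 12 h 38.1 and 37.7 CPM with EMD37 and 52.1 and 46.8 CPM with vehicle. EMD37 was below vehicle in every library at both times, and GMNN fell by 1.04 on the log2 scale (standard error 0.12, edgeR adjusted p = 2.26e-06) at 24 h and fell by 0.38 on the log2 scale (standard error 0.11, edgeR adjusted p = 0.04) at 12 h. CDT1 had 12.3 and 9.36 CPM with EMD37 at 24 h and 12.2 and 24.6 CPM with vehicle. The groups overlapped, since vehicle A lay within the range of the EMD37 libraries, and the fall of 0.75 (standard error 0.29, edgeR adjusted p = 0.0483) rested on vehicle B. Without vehicle B the CDT1 value was -0.18 (edgeR adjusted p = 0.543), and without EMD37 24 h B it was -0.57 (adjusted p = 0.284); other settings, the DESeq2 Wald test among them (adjusted p = 0.0639), ended the call too.

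**Figure D3:**
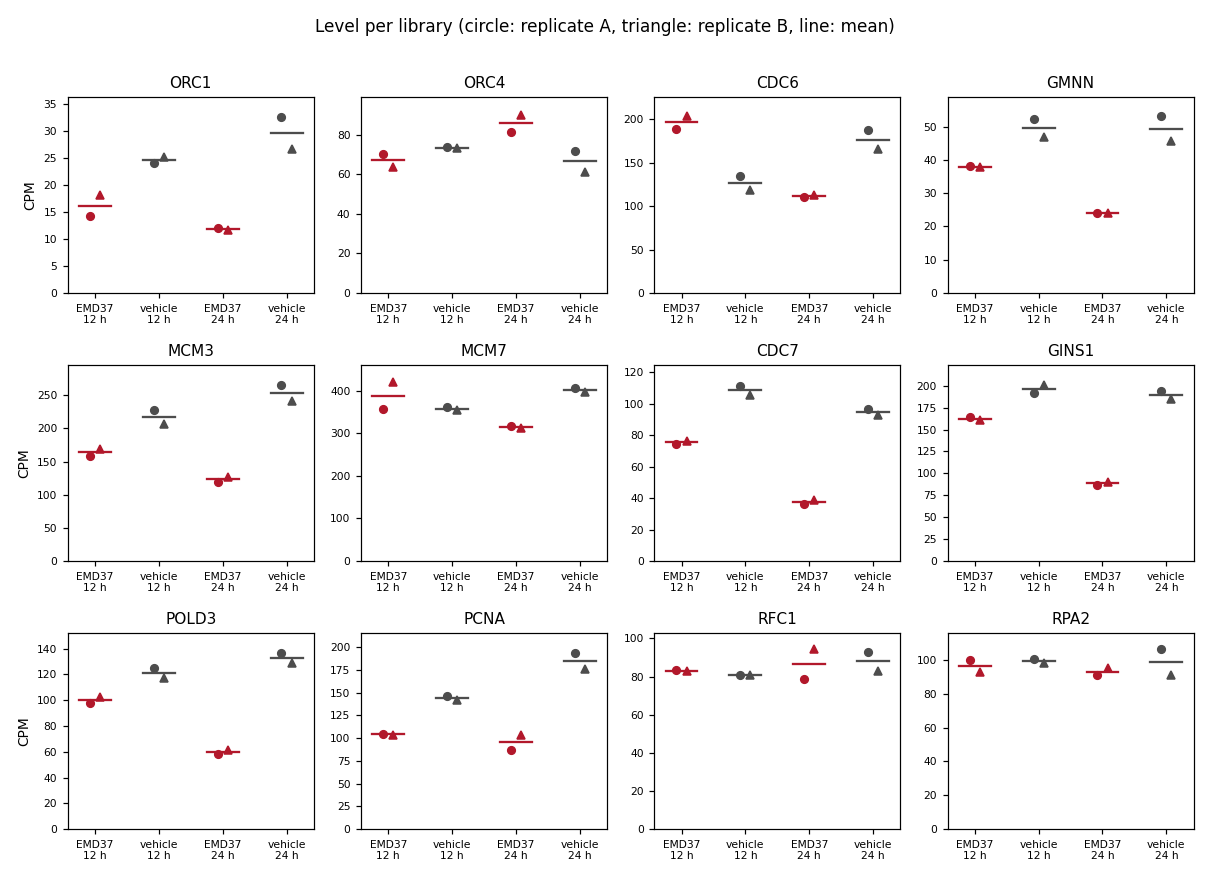
CPM (y axis, from 0) of 12 replication genes in each library, by treatment and time (x axis); circles are replicate A, triangles replicate B, and lines the mean of 2. CDC6 is higher with EMD37 at 12 h and lower at 24 h, CDC7, GINS1 and POLD3 are lower with EMD37 at both times, ORC4 is higher with EMD37 at 24 h, and RFC1 and RPA2 overlap at 24 h.

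The genes of the MCM2-7 helicase fell at 24 h. All 6 subunits were called lower at 24 h (21.1% of all genes were), with a median log2 fold change of -0.92. All 6 were called lower in the interaction as well (7.94% of all genes were). MCM2, MCM4, MCM5 and MCM7 lost the interaction call without EMD37 12 h B, at -0.71, -0.94, -0.56 and -0.34, and each also without at least 1 other library. MCM3 (ENSG00000112118, chr6:52264009-52284881) had 119.8 and 126 CPM with EMD37 at 24 h, against 266 and 241 CPM with vehicle. At 12 h MCM3 had 159 and 169.6 CPM with EMD37 and 227 and 206 CPM with vehicle. It was apart at both times and fell by 1.04 on the log2 scale (standard error 0.08, edgeR adjusted p = 4.51e-08) at 24 h and fell by 0.40 on the log2 scale (standard error 0.08, edgeR adjusted p = 0.00413) at 12 h. MCM6 had the lowest value of the 6 at 24 h (log2 fold change -1.21, standard error 0.12, edgeR adjusted p = 7.69e-07), 2.31-fold lower, and MCM4 was 2.09-fold lower (log2 fold change -1.06, standard error 0.18, edgeR adjusted p = 0.000149). MCM5 gave -0.79 (edgeR adjusted p = 9.41e-06) and MCM7 -0.36 (edgeR adjusted p = 0.00223).

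MCM2 had 31.4 and 29.1 CPM with EMD37 at 24 h and 36.6 and 51.9 CPM with vehicle, and fell by 0.55 on the log2 scale (standard error 0.14, edgeR adjusted p = 0.00558). At 12 h it had 33.4 and 32.5 CPM with EMD37 and 30.3 and 28.9 CPM with vehicle (log2 fold change 0.15, standard error 0.14, edgeR adjusted p = 0.584). Vehicle B at 24 h was the highest of all 8 libraries, and without it the log2 fold change was -0.28 and no longer called (edgeR adjusted p = 0.0948). Without EMD37 24 h B the edgeR adjusted p was 0.0588. Of the MCM2 exon bases 23.6% also lie in other annotated genes, TPRA1 among them, and the library kit did not mark strand, so its reads are less certain than those of MCM3 to MCM6, which share none. The 6 proteins form a ring with 1 copy of each, but their RNA levels per length were far apart. In vehicle at 24 h MCM7 had 136 CPM per kb of transcript, MCM3 79.0, MCM5 20.7, MCM6 14.4, MCM2 12.2 and MCM4 3.44. MCM7 shares 8.94% of its exon bases with AP4M1, and no source used here gave the reason for the low MCM4 level. The summed level of the helicase genes was 537.9 and 541.8 CPM with EMD37 at 24 h, against 850.3 and 832.8 CPM with vehicle, and at 12 h it was 641.6 and 716.3 CPM with EMD37 and 732.1 and 700.7 CPM with vehicle, which overlap.

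Among the factors that fire origins and build the active helicase, 7 of 8 fell at 24 h, with a median log2 fold change of -0.91. CDC7, the kinase that phosphorylates the loaded MCM ring (ENSG00000097046, chr1:91500893-91525764), had 36.5 and 39.0 CPM with EMD37 at 24 h and 96.8 and 92.6 CPM with vehicle. Already at 12 h it had 74.5 and 76.3 CPM with EMD37, against 112 and 106 CPM with vehicle. It fell by 1.33 on the log2 scale (standard error 0.09, edgeR adjusted p = 5.09e-09) at 24 h, 2.51-fold lower, and fell by 0.53 on the log2 scale (standard error 0.08, edgeR adjusted p = 0.00037) at 12 h. Its activating subunit DBF4 fell by 0.43 on the log2 scale (standard error 0.09, edgeR adjusted p = 0.00155) at 24 h, a call lost without EMD37 24 h A (edgeR adjusted p = 0.0547); at 12 h it was not called (-0.12, edgeR adjusted p = 0.476). DBF4 was also the single member called lower with time in vehicle.

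MCM10, which helps to activate the helicase, had 53.9 and 61.1 CPM with EMD37 at 24 h and 138 and 123 CPM with vehicle, and at 12 h 86.6 and 83.2 CPM with EMD37 and 121 and 111 CPM with vehicle. It was apart at both times and fell by 1.18 on the log2 scale (standard error 0.09, edgeR adjusted p = 4.25e-08) at 24 h and fell by 0.45 on the log2 scale (standard error 0.09, edgeR adjusted p = 0.00356) at 12 h. GINS1, a subunit of the GINS complex (ENSG00000101003, chr20:25407727-25452628), had 87.0 and 90.5 CPM with EMD37 at 24 h, against 194 and 185 CPM with vehicle. At 12 h GINS1 had 164 and 161 CPM with EMD37 and 192 and 201 CPM with vehicle, a smaller gap than the 2.13-fold lower level at 24 h. GINS1 fell by 1.09 on the log2 scale (standard error 0.07, edgeR adjusted p = 9.36e-09) at 24 h and fell by 0.27 on the log2 scale (standard error 0.07, edgeR adjusted p = 0.0268) at 12 h. GINS2 (-1.06), GINS4 (-0.76) and GINS3 (-0.48) were also called lower at 24 h, with edgeR adjusted p of 1.98e-06, 2.68e-05 and 0.00164. For GINS4 23.6% and for GINS3 10.9% of exon bases lie in other annotated genes.

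CDC45, which joins MCM2-7 and GINS in the active helicase, had few reads. It had 8.45 and 7.92 CPM with EMD37 at 24 h and 9.07 and 10.8 CPM with vehicle, and at 12 h 7.10 and 11.3 CPM with EMD37 and 9.65 and 8.21 CPM with vehicle. Both EMD37 libraries were the lower ones at 24 h, but CDC45 was not called (log2 fold change -0.28, standard error 0.22, edgeR adjusted p = 0.352), and its 95% interval of -0.74 to 0.20 holds falls of the size called for other members. In all, 8 members had a library under 10 CPM: CDC45, CDT1, LIG1, MCM4, POLA2, POLD1, POLE2 and PRIM1. No source used here gave the reason for these low levels.

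Of the 11 genes of the polymerases and primase 8 fell at 24 h, and the 3 that were not called were POLD1, POLE and POLE4. POLD3, an accessory subunit of polymerase delta (ENSG00000077514, chr11:74493851-74669117), had 58.1 and 61.0 CPM with EMD37 at 24 h, against 137 and 129 CPM with vehicle. At 12 h POLD3 had 97.6 and 103 CPM with EMD37 and 125 and 117 CPM with vehicle. It was below vehicle in every library and fell by 1.16 on the log2 scale (standard error 0.08, edgeR adjusted p = 1.30e-08) at 24 h and fell by 0.27 on the log2 scale (standard error 0.08, edgeR adjusted p = 0.0404) at 12 h. POLE, the catalytic subunit of polymerase epsilon, had 17.4 and 17.9 CPM with EMD37 at 24 h and 21.1 and 16.4 CPM with vehicle. The libraries overlapped and the log2 fold change was -0.09 (95% interval -0.44 to 0.26, edgeR adjusted p = 0.695).

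Of the other subunits of polymerase epsilon, some were called at 24 h, and the differences between subunits were not tested. POLE2, its second subunit, fell by 0.89 on the log2 scale (standard error 0.19, edgeR adjusted p = 0.00152), and POLE3, a histone-fold subunit, fell by 0.39 on the log2 scale (standard error 0.09, edgeR adjusted p = 0.00215), a call lost without EMD37 24 h A (edgeR adjusted p = 0.0762). POLE4, the partner of POLE3, had -0.30 with an edgeR adjusted p of 0.0515. Both genes of primase, which makes the RNA primers, were called lower: the catalytic PRIM1 at -1.33 (standard error 0.19, edgeR adjusted p = 3.56e-05) and PRIM2 at -0.62 (standard error 0.10, edgeR adjusted p = 6.96e-05). PRIM1 had the lowest 24 h value of the 49, 2.51-fold lower, with 5.38 and 6.66 CPM with EMD37 and 16.5 and 13.8 CPM with vehicle. Polymerase alpha, which extends the primers, fell in its catalytic subunit POLA1 (-0.69, edgeR adjusted p = 7.85e-05) and in POLA2 (-1.22, edgeR adjusted p = 0.000337). POLA2 shares 35.1% and PRIM1 21.6% of its exon bases with other annotated genes, and both had few reads.

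In polymerase delta POLD2 fell by 0.41 on the log2 scale (standard error 0.08, edgeR adjusted p = 0.000885) at 24 h. At 12 h the POLD2 value lay above 0, at 0.18, and was not called (edgeR adjusted p = 0.216). POLD1, its catalytic subunit, was near the floor, with 0.739 and 0.869 CPM with EMD37 at 24 h and 0.740 and 1.40 CPM with vehicle. At this depth a change of POLD1 could not be measured, as the 95% interval of its log2 fold change ran from -1.51 to 0.75. Per kb of transcript, vehicle at 24 h had 0.311 CPM of POLD1, 34.8 of POLD3 and 41.8 of POLD2.

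For the clamp and its loader 5 of 6 genes fell at 24 h, with a median log2 fold change of -0.68. PCNA (ENSG00000132646, chr20:5114953-5126626) encodes the clamp that tethers polymerases to DNA. It had 87.5 and 103 CPM with EMD37 at 24 h, against 194 and 176 CPM with vehicle, and at 12 h 105 and 104 CPM with EMD37 and 147 and 142 CPM with vehicle. PCNA fell by 0.95 on the log2 scale (standard error 0.09, edgeR adjusted p = 2.70e-07) at 24 h and fell by 0.47 on the log2 scale (standard error 0.09, edgeR adjusted p = 0.00231) at 12 h. Every EMD37 library lay below every vehicle library of its time, and the vehicle libraries at 24 h were the highest of the 8. The small loader subunits RFC2 (-0.54), RFC3 (-0.74), RFC4 (-0.85) and RFC5 (-0.61) were all called lower at 24 h, with edgeR adjusted p of 0.00268, 4.93e-06, 2.86e-05 and 4.23e-05.

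RFC1, the large subunit of the loader, was not called at 24 h. It had 78.5 and 94.3 CPM with EMD37 at 24 h and 93.0 and 83.0 CPM with vehicle, and at 12 h 83.2 and 83.0 CPM with EMD37 and 80.9 and 80.9 CPM with vehicle. The 24 h groups overlapped, and the log2 fold change was -0.03 (edgeR adjusted p = 0.847) with a 95% interval of -0.23 to 0.17, which does not reach the fall of 0.54 fitted for RFC2. The difference between these subunits was not itself tested.

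Of the 3 RPA genes 2 fell at 24 h. RPA1, the large subunit that binds single-stranded DNA, had 156 and 174 CPM with EMD37 at 24 h, against 254 and 224 CPM with vehicle, and fell by 0.54 on the log2 scale (standard error 0.09, edgeR adjusted p = 0.000111). At 12 h RPA1 had 188 and 208 CPM with EMD37 and 214 and 223 CPM with vehicle, which was not called (-0.14, edgeR adjusted p = 0.37). RPA3, the smallest subunit, had -0.78 (standard error 0.15, edgeR adjusted p = 0.000609). RPA2 had 91.1 and 94.9 CPM with EMD37 at 24 h and 106 and 91.0 CPM with vehicle, which overlapped (log2 fold change -0.09, standard error 0.09, edgeR adjusted p = 0.466, 95% interval -0.28 to 0.10). At 12 h RPA2 had 99.7 and 92.6 CPM with EMD37 and 101 and 98.2 CPM with vehicle. The 3 subunits form a single complex, and the difference between RPA2 and the others was not tested.

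Both enzymes that finish Okazaki fragments fell. FEN1, the flap endonuclease (ENSG00000168496, chr11:61792637-61797244), had 256 and 264 CPM with EMD37 at 24 h, against 401 and 427 CPM with vehicle, and fell by 0.67 on the log2 scale (standard error 0.08, edgeR adjusted p = 2.87e-06). At 12 h it had 345 and 378 CPM with EMD37 and 412 and 394 CPM with vehicle (log2 fold change -0.16, standard error 0.07, edgeR adjusted p = 0.236). LIG1, the ligase that seals the fragments, had 4.75 and 5.50 CPM with EMD37 at 24 h and 11.8 and 12.6 CPM with vehicle. At 12 h LIG1 had 6.73 and 5.97 CPM with EMD37 and 8.54 and 8.81 CPM with vehicle. It was below vehicle in every library and fell by 1.24 on the log2 scale (standard error 0.19, edgeR adjusted p = 7.12e-05) at 24 h, 2.37-fold lower; at 12 h it was not called (log2 fold change -0.45, standard error 0.19, edgeR adjusted p = 0.17).

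Chromatin factors behind the fork fell as well. CHAF1B, a subunit of the CAF-1 chaperone that deposits histones on new DNA (ENSG00000159259, chr21:36385378-36419015), had 21.9 and 21.6 CPM with EMD37 at 24 h and 47.6 and 51.8 CPM with vehicle. At 12 h CHAF1B had 34.6 and 27.4 CPM with EMD37 and 37.6 and 41.6 CPM with vehicle, and it fell by 1.19 on the log2 scale (standard error 0.13, edgeR adjusted p = 1.66e-06) at 24 h. CHAF1A, its partner, had -0.64 (standard error 0.11, edgeR adjusted p = 0.00018). UHRF1, which binds hemimethylated DNA and recruits the maintenance methyltransferase (ENSG00000276043, chr19:4903080-4962154), had 55.6 and 52.9 CPM with EMD37 at 24 h, against 108 and 129.7 CPM with vehicle. In the fit of 17863 genes that includes recovered reads, UHRF1 fell by 1.13 on the log2 scale (standard error 0.10, edgeR adjusted p = 3.24e-08) at 24 h; at 12 h it was not called (-0.22, edgeR adjusted p = 0.196).

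SLBP, which binds the stem-loop of histone mRNAs, moved least of these. It had 115 and 121 CPM with EMD37 at 24 h and 145 and 136 CPM with vehicle, and at 12 h 114 and 127 CPM with EMD37 and 128 and 134 CPM with vehicle. SLBP fell by 0.26 on the log2 scale (standard error 0.08, edgeR adjusted p = 0.0187) at 24 h. That call was lost without EMD37 24 h A (edgeR adjusted p = 0.177), without vehicle 24 h A (adjusted p = 0.17) and by the DESeq2 Wald test (adjusted p = 0.0728). MCM8, a relative of the helicase subunits that acts in repair, had 92.9 and 86.2 CPM with EMD37 at 24 h, against 131 and 138 CPM with vehicle, and fell by 0.58 on the log2 scale (standard error 0.09, edgeR adjusted p = 4.62e-05). At 12 h MCM8 had 137 and 130.5 CPM with EMD37 and 159.9 and 139.6 CPM with vehicle (-0.16, edgeR adjusted p = 0.278).

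**Figure D4:**
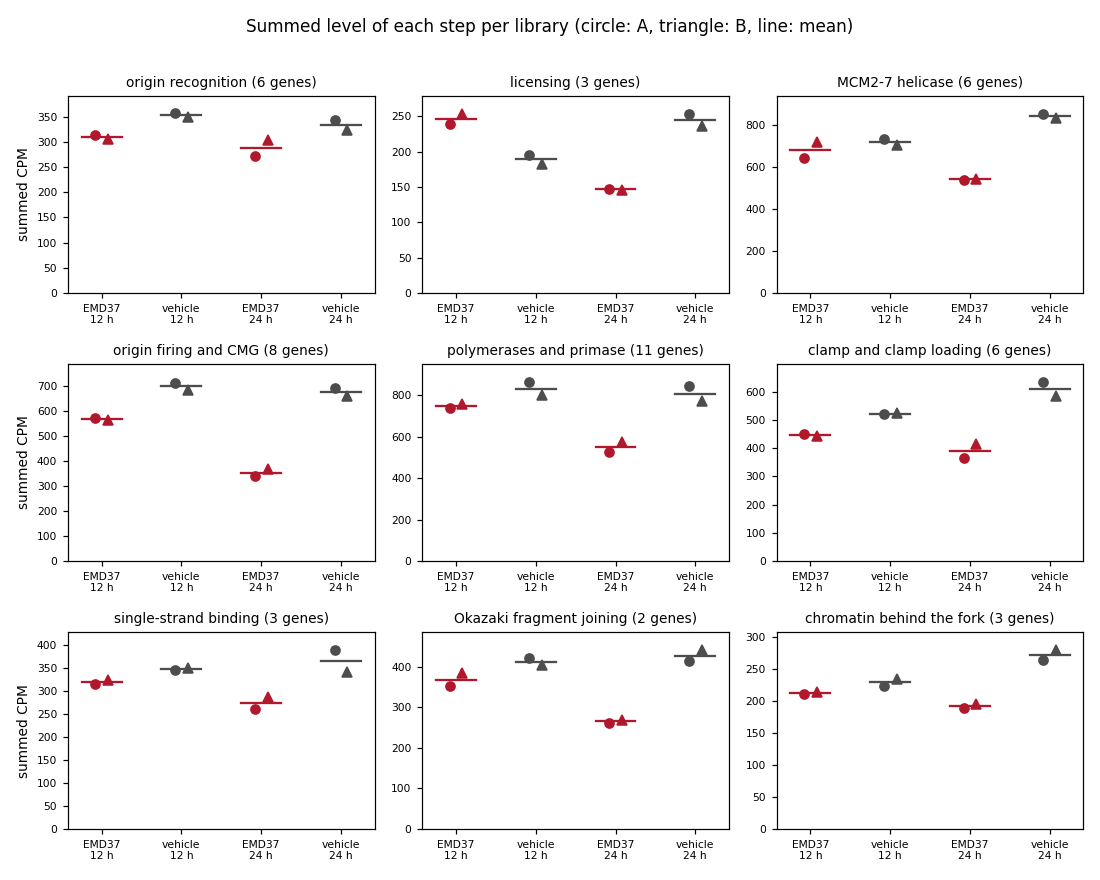
Summed CPM (y axis, from 0) of the genes of each step in each library, by treatment and time (x axis); circles are replicate A, triangles replicate B, lines the mean of 2, and UHRF1 is left out. Every step is lower with EMD37 at 24 h; at 12 h licensing is higher with EMD37, and the helicase sums overlap.

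Summed over the 49 genes, replication RNA took 2986 and 3185 CPM with EMD37 at 24 h, against 4811 and 4614 CPM with vehicle. At 12 h the sums were 3971 and 4094 CPM with EMD37 and 4531 and 4367 CPM with vehicle. Each of the 9 steps with more than 1 gene had both EMD37 libraries below both vehicle libraries at 24 h. The licensing sum ran the other way at 12 h, with 239.4 and 252.7 CPM with EMD37 and 195.9 and 182.2 CPM with vehicle, most of it CDC6. Across the 49 members the 24 h log2 fold change correlated at r = 0.02 (Spearman's rho 0.04) with the GC content of the transcript and at r = 0.17 (rho 0.20) with the log2 mean CPM, all points coming from the same 4 libraries.

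Changes between 12 h and 24 h were also fitted within each treatment. These comparisons share libraries with those above, so their values are set side by side. Within EMD37, 30 members fell between 12 h and 24 h (15.7% of all genes were called lower) and ORC4 rose (15.5% of all genes were called higher), with a median of -0.37. Within vehicle, 7 members rose (2.75% of all genes) and DBF4 fell (3.25% of all genes), with a median of 0.13. The 7 were CDC6, MCM2, MCM5, POLD2, PCNA, RFC4 and CHAF1A. With offsets for GC content POLD2 gave 0.15 and was not called (edgeR adjusted p = 0.327), while 7 members were still called higher. Without vehicle 24 h B the values were 0.33 for MCM2, 0.32 for POLD2 and 0.30 for CHAF1A. For MCM5 the change with time was -0.05 with EMD37 (edgeR adjusted p = 0.766) and 0.50 with vehicle (adjusted p = 0.00907). PCNA gave -0.13 with EMD37 (edgeR adjusted p = 0.295) and 0.36 with vehicle (adjusted p = 0.0238), and CHAF1A -0.21 with EMD37 (adjusted p = 0.156) and 0.47 with vehicle (adjusted p = 0.0187).

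Other members changed with time in EMD37 and not detectably in vehicle. CDC7 gave -0.997 with EMD37 (edgeR adjusted p = 3.59e-07) and -0.20 with vehicle (adjusted p = 0.153). GINS1 gave -0.87 with EMD37 (edgeR adjusted p = 2.97e-07) and -0.05 with vehicle (adjusted p = 0.71). GMNN gave -0.66 with EMD37 (edgeR adjusted p = 0.000463) and 0.00 with vehicle (adjusted p = 0.995). For these 3 genes the difference between the treatments' changes is the interaction, which was called. The 8 vehicle calls were each lost under at least 1 setting: an edgeR fit on the 4 vehicle libraries alone called none of the members. The calls also varied when 1 library was left out.

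**Figure D5:**
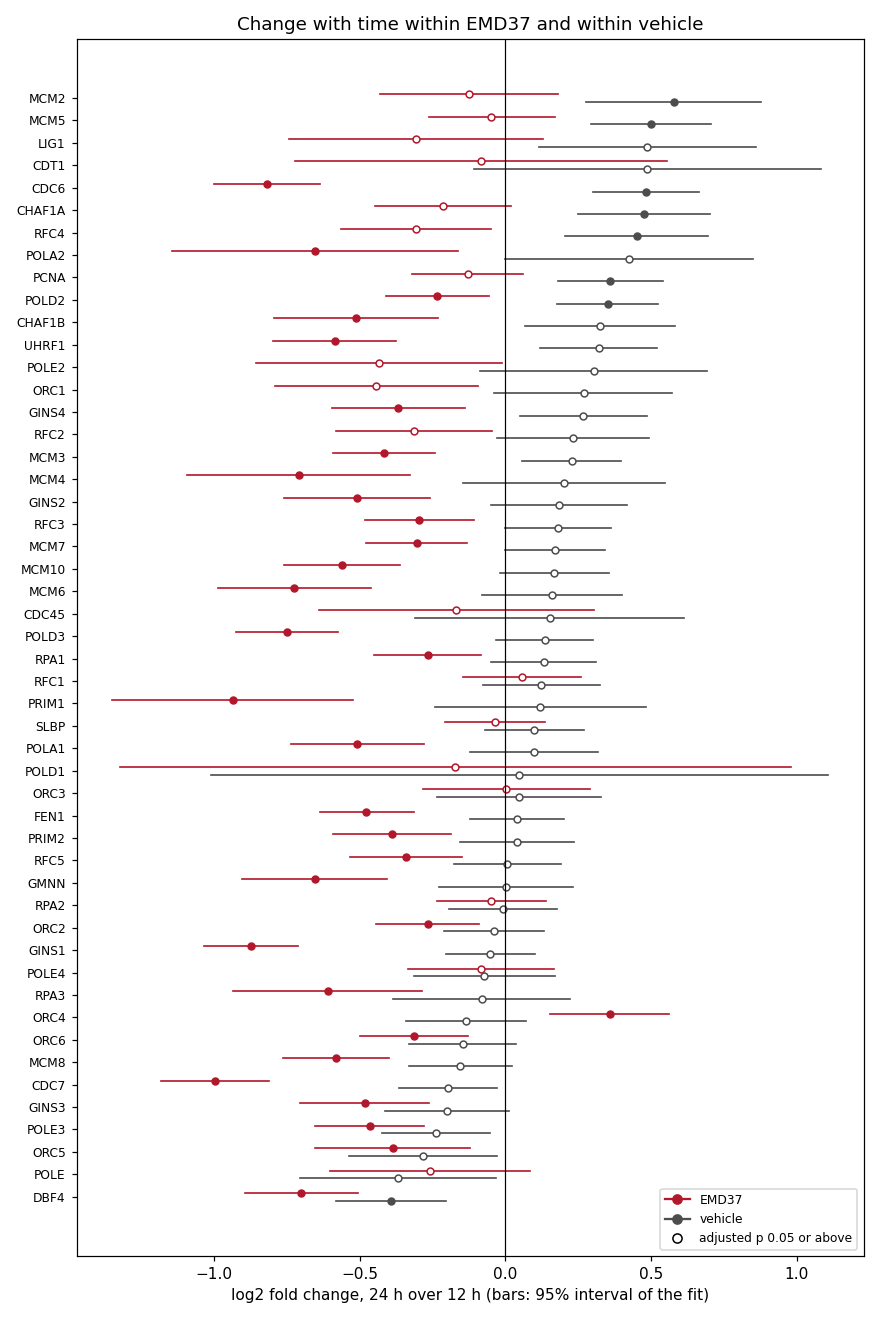
Log2 fold change of 24 h over 12 h (x axis) within EMD37 (red) and within vehicle (gray) for each replication gene (y axis, ordered by the vehicle value), with 95% intervals of the fit and filled points at an adjusted p below 0.05. PCNA, MCM5 and CHAF1A have filled vehicle points right of 0 and open EMD37 points, and CDC7, GINS1 and GMNN have filled EMD37 points left of 0 and open vehicle points.

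The windows upstream of the transcription start were read for motifs of factors known to regulate such genes. RefSeq windows on GRCh38.p14 were held for 44 of the 50 members, and the 250 bases before the start were searched on both strands. An E2F-type motif, TTCCCGC or TTGGCGC, was found in 20 of the 44 (45.5%), against 2568 of 27305 genes with a window (9.4%). Of the 20 holders 17 were called lower at 24 h, and of the 24 without it 20 were. A CCAAT box was found in 25 of the 44 (56.8%), against 37% of genes. The motif TTTGAA, known from genes of mitosis as CHR, was found in 1 of the 44 (2.27%), POLE3, against 16.1% of genes. A TTGGCGC that follows an A also holds a CCAAT box on the other strand, so these 2 counts are not separate, and a match describes letters only. The genes with a window were not limited to those expressed in these cells, as the members were, so the shares compare unlike sets. The windows printed are those of the holder with the smallest 24 h p in each of 5 steps, and of ORC4, the member that rose. ORC4 is among the 24 members without an E2F-type motif, of which 20 were called lower, and the part of the motif was not tested. The printed windows run 5′ to 3′ on the strand of the gene and end at the base before the start. Capitals in these windows mark the E2F-type motifs on either strand. The windows lie at chr1:52404424-52404673 for ORC1, chr6:52284743-52284992 for MCM3, chr12:56752324-56752573 for PRIM1, chr20:5126623-5126872 for PCNA and chr2:148021552-148021801 for ORC4, all on the minus strand, and at chr1:91500601-91500850 on the plus strand for CDC7.
ORC1: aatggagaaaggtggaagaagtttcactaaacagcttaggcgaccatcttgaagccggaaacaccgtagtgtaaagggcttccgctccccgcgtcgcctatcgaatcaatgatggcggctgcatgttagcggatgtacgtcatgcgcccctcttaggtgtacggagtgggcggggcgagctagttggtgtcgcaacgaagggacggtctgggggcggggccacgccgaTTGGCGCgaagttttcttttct
MCM3: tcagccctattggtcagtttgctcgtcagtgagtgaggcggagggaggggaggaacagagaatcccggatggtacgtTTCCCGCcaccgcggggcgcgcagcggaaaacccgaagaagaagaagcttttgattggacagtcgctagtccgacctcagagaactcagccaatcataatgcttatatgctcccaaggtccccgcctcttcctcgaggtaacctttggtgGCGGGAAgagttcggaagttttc
CDC7: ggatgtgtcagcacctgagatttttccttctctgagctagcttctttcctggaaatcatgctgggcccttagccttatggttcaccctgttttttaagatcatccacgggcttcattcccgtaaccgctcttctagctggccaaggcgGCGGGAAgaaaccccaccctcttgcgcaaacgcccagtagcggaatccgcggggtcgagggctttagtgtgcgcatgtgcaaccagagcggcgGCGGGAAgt
PRIM1: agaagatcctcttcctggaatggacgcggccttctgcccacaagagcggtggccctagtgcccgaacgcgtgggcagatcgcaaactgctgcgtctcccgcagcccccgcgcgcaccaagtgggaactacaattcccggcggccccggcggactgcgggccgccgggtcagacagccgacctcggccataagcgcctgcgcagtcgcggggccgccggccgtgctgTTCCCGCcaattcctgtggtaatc
PCNA: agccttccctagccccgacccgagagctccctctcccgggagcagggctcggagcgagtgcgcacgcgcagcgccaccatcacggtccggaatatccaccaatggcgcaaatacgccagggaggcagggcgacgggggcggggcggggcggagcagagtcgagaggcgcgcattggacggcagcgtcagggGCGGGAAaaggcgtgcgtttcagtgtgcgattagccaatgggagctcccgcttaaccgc
ORC4: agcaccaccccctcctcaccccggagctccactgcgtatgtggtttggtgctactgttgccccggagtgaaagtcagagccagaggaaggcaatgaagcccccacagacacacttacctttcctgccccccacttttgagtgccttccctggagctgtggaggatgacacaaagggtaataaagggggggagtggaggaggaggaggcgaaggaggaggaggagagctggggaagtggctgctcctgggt

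In ORC1 the motif lies 22 to 16 bases before the start and in PRIM1 24 to 18 bases before it. MCM3 has 2, at 173 to 167 and at 23 to 17 bases, CDC7 has 2, at 102 to 96 and at 9 to 3 bases, and PCNA has 1, at 59 to 53 bases. The table holds 2 windows each for CDC7, PCNA and ORC4, and the one with the most motifs is shown.

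Other genes of replication, a separate list of 40 that are no members, gave values of the same kind. At 24 h 27 of the 40 fell, where 21.1% of all genes did, 5 rose, where 19.6% of all genes did, and 8 were not called, with a median log2 fold change of -0.60. At 12 h 7 fell, where 3.43% of all genes did. SKP2, the ubiquitin ligase subunit that targets p27 and CDT1, had 51.4 and 52.2 CPM with EMD37 at 24 h and 176 and 179 CPM with vehicle, and fell by 1.77 on the log2 scale (standard error 0.08, edgeR adjusted p = 9.22e-11) at 24 h and fell by 0.92 on the log2 scale (standard error 0.08, edgeR adjusted p = 5.49e-07) at 12 h. EXO1, a 5′ exonuclease, fell by 1.56 on the log2 scale (standard error 0.11, edgeR adjusted p = 1.17e-08) at 24 h, as did the histone chaperone gene ASF1B (-1.35, edgeR adjusted p = 1.41e-08) and FAM111A, a PCNA-binding protease (-1.44, edgeR adjusted p = 6.60e-10). The other genes called lower at 12 h were CUL4B (-0.28), DNA2 (-0.56), DSCC1 (-0.49), ATAD5 (-0.34), PCLAF (-0.35) and FAM111A (-0.53).

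The 5 that rose at 24 h were fewer, as a share, than among all genes. They included CUL4A (log2 fold change 0.37, standard error 0.09, edgeR adjusted p = 0.0025), CUL4B (log2 fold change 0.22, standard error 0.07, edgeR adjusted p = 0.0237) and DDB1 (log2 fold change 0.39, standard error 0.12, edgeR adjusted p = 0.0128), which serve in the ubiquitin ligase that degrades CDT1 on chromatin-bound PCNA. DTL, the substrate receptor of that ligase, fell instead (log2 fold change -0.54, standard error 0.09, edgeR adjusted p = 8.49e-05). The other two that rose were the topoisomerase TOP1 (log2 fold change 0.33, standard error 0.08, edgeR adjusted p = 0.00242) and RBBP4 (log2 fold change 0.41, standard error 0.09, edgeR adjusted p = 0.00193), the small subunit of CAF-1. RBBP4 had 76.5 and 89.4 CPM with EMD37 at 24 h, against 61.2 and 63.5 CPM with vehicle, so that within CAF-1 it rose where CHAF1A and CHAF1B fell. RBBP4 also belongs to other chromatin complexes.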

How the data were processed

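The deposited counts, whole numbers of reads per gene in 8 libraries, entered every test. The submitters' processing notes name FastQC, STAR, DESeq2 and build hg38; no source used here gives the counting program, versions or strand setting. Per the labels, libraries came from 1 µg of total RNA with the TruSeq V2 kit, which does not mark strand. The authors' normalized counts, a signal, equaled counts divided by a size factor per library. The count table was cut short. IDs found only among the deposited normalized values (6912) gave whole reads for 55296 of 55296 values within 0.01, and UHRF1 comes from these.

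The filterByExpr function of edgeR 4.0.16 (R 4.3.3), at a minimum count of 10, kept 14850 genes; TMM factors were 0.948 to 1.03. The model had a mean for each group, 4 residual degrees of freedom and a coefficient of biological variation of 0.0733. A call is an adjusted p below 0.05 by the quasi-likelihood test, with Benjamini-Hochberg adjustment over all genes tested; 5 comparisons were made. CPM were scaled by TMM factors, errors are standard errors of the fit, and floors cover counting error only. Lengths and names came from GENCODE 29, using the longest principal transcript, and promoters from RefSeq.

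Members given per library were, by step, those with the smallest and largest 24 h p, all members of steps with fewer than 3, those called at 12 h and UHRF1. Of the other factors the 4 smallest p each way at 24 h and those called at 12 h are named. ORC4, MCM2-7 subunits, DBF4, PRIM1, POLD1, DTL and some fold changes beyond that rule were chosen after their values were seen. The members, lists and rules were chosen with earlier results of these data known. Alternatives were other scalings, DESeq2 1.42.0, no filter, a replicate block, recovered reads, the 4 libraries of a comparison alone, each library left out, and GC offsets added after seeing the data.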

Additional observations from a re-analysis of the deposited data

Results flagged for a closer look

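For 31 members the EMD37 effect at 24 h differed from that at 12 h by the treatment by time interaction (edgeR's quasi-likelihood test, adjusted p below 0.05), given here as the log2 effect at 24 h minus that at 12 h. In 1 of them, ORC4, the value was positive, 0.49. CDC6 had the lowest, -1.30, and was the one member called in opposite directions at the 2 times. Of the other initiation genes the values were ORC1 -0.71, GMNN -0.66, CDC7 -0.80, MCM10 -0.73, GINS1 -0.82, GINS2 -0.69 and GINS4 -0.64. The helicase subunits gave MCM2 -0.70, MCM3 -0.64, MCM4 -0.91, MCM5 -0.55, MCM6 -0.89 and MCM7 -0.48, and MCM8 gave -0.42. Polymerase and primase genes gave POLA1 -0.61, POLA2 -1.08, PRIM1 -1.06, PRIM2 -0.43, POLD2 -0.58 and POLD3 -0.88. Fork proteins gave PCNA -0.49, RFC2 -0.55, RFC3 -0.48, RFC4 -0.76, RPA1 -0.40 and FEN1 -0.52. Chromatin factors gave CHAF1A -0.69 and CHAF1B -0.84, and UHRF1, from recovered reads, -0.91.

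The call was made under every setting run for 12 of the 31: CDC6, MCM3, MCM6, CDC7, MCM10, GINS1, POLD2, POLD3, RFC4, UHRF1, CHAF1A and CHAF1B. The other 19 lost it under at least 1 setting. Leaving out EMD37 12 h B ended 17 of the calls and leaving out vehicle 12 h B ended 14.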

How the results depend on the processing

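Across settings that kept all libraries, 38 to 42 members were called lower at 24 h, and 35 to 40 when 1 library was left out; of 43 calls at that time, UHRF1 included, 35 were made under every setting run. No called value changed sign under any setting. Among uncalled values, counted once for each pair of member and setting, the sign changed in 16 pairs at 12 h and 6 at 24 h. The 8 members lower at 12 h became 13 with library totals alone, 13 with GC offsets (chosen after seeing the data) and 16 in a fit on the 4 libraries of that time alone. Leaving out 1 library gave 2 to 15: 2 without vehicle 12 h A, 2 without EMD37 12 h B, 3 without EMD37 12 h A, 5 without vehicle 12 h B, 5 without EMD37 24 h A, and 15 without either vehicle library of 24 h. The count called higher at 24 h ran from 0 to 1. For the interaction, 22 to 33 members were called lower with all libraries kept, 13 to 30 with 1 left out, and 0 to 1 higher, the counts furthest below the 29 being 13 without EMD37 12 h B, 16 without vehicle 12 h B and 19 without EMD37 12 h A or EMD37 24 h A. Within EMD37, 18 to 34 were called lower with time and 0 to 1 higher, with 18 without EMD37 24 h A. Within vehicle, 0 to 10 were called higher and 0 to 3 lower, and 0 either way by edgeR in a fit on the 4 vehicle libraries, where 16 had an unadjusted p below 0.05. Library totals alone moved the median of all genes at 24 h to -0.12. The letters A and B were not shown to pair libraries (correlations of A minus B between groups -0.16 to 0.16); with a replicate block 7 members were lower and 1 higher at 12 h, 40 and 1 at 24 h, and 29 and 1 in the interaction. Where a call was lost the cause was not tested. POLD1 and CDC45 had few reads, and the CDT1 libraries of the 2 treatments overlapped at 24 h.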
